A study of Mus musculus with 8 samples.

Results

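The genes described here are 10 members of the bone morphogenetic protein (BMP) pathway. They comprise the ligands *Bmp4*, *Bmp6* and *Bmp7*, the secreted antagonists *Chrd* and *Nog*, the receptors *Bmpr1a* and *Bmpr2*, and the target genes *Id1*, *Id2* and *Id3*. They were taken from the deposited expression table by gene symbol, and all 10 were among its 15039 genes. The table covers 8 RNA sequencing libraries of prefrontal cortex (PFC), each carrying a group and a replicate number. Whether a library came from 1 mouse or from pooled mice is not given in the sources used here, so the p-values measure the spread between these libraries. In 4 of them the PFC had been injected on both sides with an AAV2/1 that expresses Rnf146 together with eGFP, and in the other 4 with an AAV2/1 that expresses eGFP alone. The study states that sequencing used mice that had been shown to overexpress Rnf146 and to have social deficits. All mice were wild-type C57BL/6NCrljOri males that entered the experiment at 6 weeks of age, and tissue was taken 4 weeks after injection. Both vectors carry the human synapsin promoter, which drives expression in neurons, so the glial and vascular cells of the dissected tissue were not the intended targets. Rnf146 is a ubiquitin ligase that marks Axin, a brake on Wnt/β-catenin signaling, for degradation.

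BMPs are secreted dimers of the TGF-β superfamily. They bring a type II receptor such as Bmpr2 together with a type I receptor such as Bmpr1a, which phosphorylates Smad1, Smad5 and Smad9, and these enter the nucleus with Smad4. Chordin (the product of *Chrd*) and Noggin bind the ligands outside the cell and keep them from their receptors. Id proteins are helix-loop-helix proteins without a DNA-binding basic region that hold E-proteins and neuronal bHLH factors away from DNA, and *Id1* and *Id3* are classical direct targets of BMP-Smad signaling. In the adult cortex the pathway is known for its part in synapse stability, glial fate and the vasculature.

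The deposited values are log2 values that run from 7.86 to 18.8. Since the transformation is not given in the sources used here, differences are stated on this scale and not as fold changes of the RNA. They had been centred within same-numbered pairs of libraries, so that each gene carries 4 differences, Rnf146 value minus eGFP value. An error given as SD is the spread of these 4 differences. Because of the centring, the values of the 2 groups are mirror images around one mean, and the groups do not overlap exactly when all 4 differences have the same sign. Genes were tested with limma, blocking on the replicate number and adjusting over all 15039 genes, and those whose adjusted p did not exceed 0.1 are termed called. A fit without the block treats the 2 mirrored values of a pair as independent. Its p-values tend to be too small and are given only for comparison. Depth per library is unknown, since no counts are in the table.

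*Rnf146* itself was checked first. Its value was 10.35, 10.50, 10.43 and 10.47 in the eGFP libraries and 13.17, 13.01, 13.09 and 13.05 in the Rnf146 libraries. All Rnf146 libraries were far above all eGFP libraries, on average by 2.64 ± 0.13 (n = 4, SD), as their labels state. Since the study used mice already known to overexpress Rnf146, this checks the labels only. Markers of cortical excitatory neurons were present in all libraries, at a mean value between 12.95 and 13.31. Markers of the septum and basal forebrain were also present. They were called higher in 6 of the 6 genes with values, beside 0.818% of all genes, so that these markers moved with the group. This list was chosen with earlier results of these data known.

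Before the values, stretches of sequence upstream of the canonical transcript starts of Id genes and of *Bmpr1a* show the letters through which BMP-activated Smads are known to act. The palindrome GGCGCC is the GC-rich site of Smad1 and Smad5, and CAGAC, or GTCTG on the other strand, is the Smad4 box. Both were searched on both strands in the 2500 bases before the start of the canonical transcript (GENCODE vM39, GRCm39), and capitals mark the matches. The 2 motifs share no letters in these stretches, and none of the stretches overlaps an annotated exon. Those of *Id1* and *Bmpr1a* lie inside the annotated span of the gene, which begins further upstream than the canonical transcript. *Id1* and *Id2* are shown because a GGCGCC lies within 100 bases of a Smad4 box there, *Bmpr1a* because it was higher in all 4 pairs, and *Id4*, a related gene outside the 10, because it was the Id gene that was called. *Bmpr2* meets the first of these reasons and *Bmp4* the second, and neither is shown. A link between motif and difference was not tested.
Id1, chr2:152577060-152577179, plus strand: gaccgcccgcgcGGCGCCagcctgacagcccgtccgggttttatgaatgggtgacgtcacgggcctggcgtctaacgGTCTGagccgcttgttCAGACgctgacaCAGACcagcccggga
Id2, chr12:25148843-25148932, minus strand: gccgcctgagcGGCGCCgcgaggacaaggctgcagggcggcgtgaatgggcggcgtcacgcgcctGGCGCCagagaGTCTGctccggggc
Bmpr1a, chr14:34224808-34224887, minus strand: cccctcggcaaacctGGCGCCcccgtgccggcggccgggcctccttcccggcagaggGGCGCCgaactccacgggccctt
Id4, chr13:48414428-48414507, plus strand: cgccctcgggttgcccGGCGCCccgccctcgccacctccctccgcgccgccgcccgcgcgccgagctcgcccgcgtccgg

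The *Id1* stretch holds 1 GGCGCC, which lies 1093 bases before the transcript start and is followed by 3 Smad4 boxes. The *Id2* stretch holds GGCGCC at 1639 and at 1585 bases before the start, the second followed by a Smad4 box. The 2 stretches share 4 runs of 8 bases, and among these TGAATGGG and GCCTGGCG stand 19 bases apart in both. *Bmpr1a* has GGCGCC at 115 and 73 bases and *Id4* at 114 bases, none of them within 100 bases of a Smad4 box. *Bmpr2* has it at 903 and 90 bases, 1 of them near a Smad4 box, and *Nog* at 686 bases. No GGCGCC was found in the 2500 bases before *Id3*, *Chrd*, *Bmp4*, *Bmp6* or *Bmp7*. Of 14587 genes of the table with a canonical start, 25.1% held GGCGCC in this window and 10.1% held it within 100 bases of a Smad4 box. A match describes the letters and does not show a bound site.

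Between Rnf146-overexpressing and eGFP-overexpressing mice, none of the 10 genes was called, against 1.25% of all genes. The count at an unadjusted p under 0.05 was 3 of 10 (*Chrd*, *Bmpr1a* and *Id1*), against 12.4% of all genes. *Chrd* and *Id1* were lower, and *Bmp4* and *Bmpr1a* were higher, in all 4 pairs, so that 4 of the 10 genes had groups that did not overlap, against 20.6% of all genes. By direction, 2 of the 10 were higher in all pairs, against 10.4% of all genes, and 2 were lower, against 10.2%. The mean differences ran from -0.31 for *Chrd* to 0.11 for *Bmpr1a*, and 6 of the 10 were above 0. Their median was 0.05, beside 0.00 for all genes, and the median size was 0.09, beside 0.05 for all genes. Without *Chrd*, the means of the other 9 genes lay between -0.10 and 0.11.

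**Figure D1:**
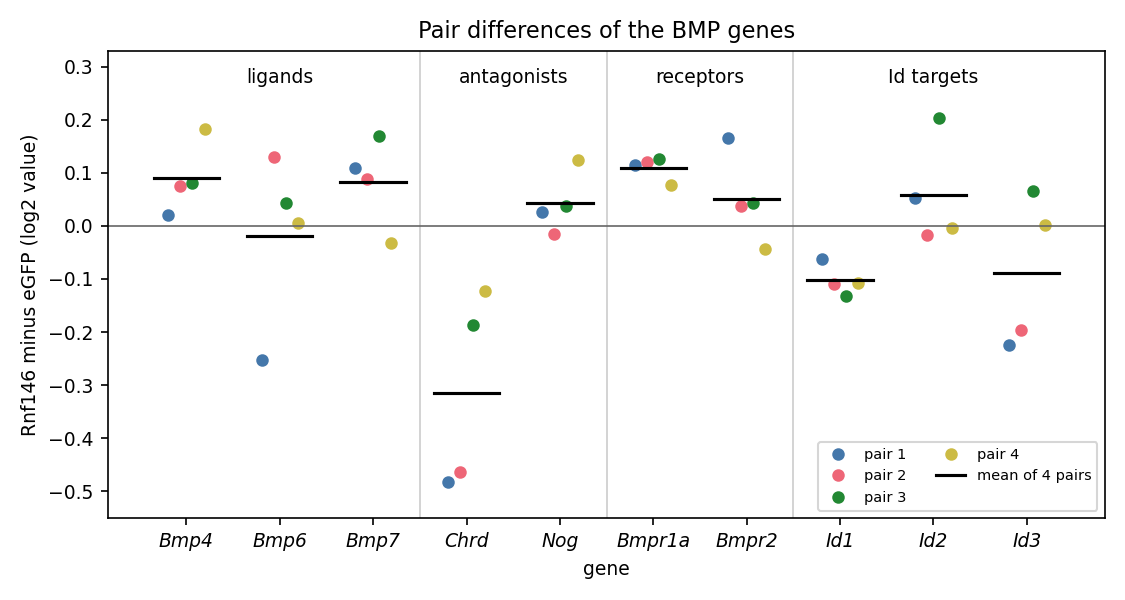
Differences between the Rnf146 and the eGFP library of each pair (vertical axis, log2 value) for the 10 BMP genes, ordered by role, with 1 coloured point per pair and a black line at the mean of the 4 pairs. *Chrd* lies farthest from 0, with pairs 1 and 2 at -0.48 and -0.46, whereas the points of *Bmpr1a* and *Id1* lie close together on 1 side of 0.

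Among the antagonists, *Chrd* (chromosome 16 of GRCm39, 20550622 to 20561857, plus strand) had values of 10.78, 10.77, 10.63 and 10.60 in the eGFP libraries. In the Rnf146 libraries of the same pairs they were 10.29, 10.30, 10.44 and 10.47. The eGFP libraries were all above the Rnf146 libraries, and pairs 1 and 2 stood further apart than pairs 3 and 4. The mean difference was -0.31 ± 0.19 (n = 4, SD), with a 95% interval from -0.47 to -0.15 and an adjusted p of 0.117. It stayed between -0.38 and -0.26 with each pair left out in turn, and the adjusted p was 0.011 without the block. The study reports *Chrd* as significantly decreased in these same libraries, so its direction here is not independent evidence. The study's false discovery rate cutoff was the same as the threshold for called genes here. With the block, *Chrd* was nevertheless not called here, so its status differs from that in the study. The reason for this difference was not tested. *Thpo*, which encodes thrombopoietin and overlaps *Chrd* on the opposite strand, was lower in all 4 pairs as well (-0.18, -0.19, -0.11 and -0.17) with an adjusted p of 0.202. The kit marks strand, but whether the counting used it is not given in the sources used here.

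*Nog* (chromosome 11, 89191464 to 89193158, minus strand), which encodes the other antagonist, did not share this pattern. Its values were 8.85, 8.87, 8.84 and 8.80 in the eGFP libraries and 8.87, 8.85, 8.88 and 8.92 in the Rnf146 libraries. The groups overlapped, since pair 2 went the other way. On average *Nog* differed by 0.04 ± 0.06 (n = 4, SD), less than the spread, with a 95% interval from -0.06 to 0.15, and by 0.016 without pair 4.

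Of the ligands, *Bmp4* (chromosome 14, 46620250 to 46636745, minus strand) was measured at 8.39, 8.36, 8.36 and 8.31 in the eGFP libraries and 8.41, 8.44, 8.44 and 8.49 in the Rnf146 libraries. The Rnf146 libraries were all higher, but the margin was 0.02 in pair 1 and 0.18 in pair 4. The mean difference of 0.09 ± 0.07 (n = 4, SD) had a 95% interval from -0.01 to 0.19 and an adjusted p of 0.448. These values lie just above the lowest gene mean of the table, 8.20. *Bmp4* is known as a product of oligodendrocyte precursors, and the list of precursor markers had differences of -0.09, 0.18, 0.32 and 0.24 in the 4 pairs. Its part in the *Bmp4* values was not tested.

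*Bmp7* (chromosome 2, 172709805 to 172782410, minus strand), made by meninges and glia among others, was higher in 3 of the 4 pairs, with differences of 0.11, 0.09, 0.17 and -0.03. The average, 0.08 ± 0.08 (n = 4, SD), was about as large as the spread, and the adjusted p was 0.535. *Bmp6* (chromosome 13, 38529065 to 38684280, plus strand) was the ligand with the widest spread. Its eGFP values were 9.0, 8.81, 8.85 and 8.87 and its Rnf146 values 8.75, 8.94, 8.90 and 8.88. Pair 1 alone was lower, by 0.25, and the other 3 pairs were higher. The mean of -0.02 ± 0.16 (n = 4, SD) had an adjusted p of 0.944 and turned to 0.06 without pair 1. *Txndc5*, which overlaps *Bmp6* on the opposite strand, had a difference of 0.12 with an adjusted p of 0.421.

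The type I receptor gene *Bmpr1a* (chromosome 14, 34132687 to 34225379, minus strand) had the most even differences of the 10 genes. Its values were 10.79, 10.78, 10.78 and 10.81 in the eGFP libraries and 10.90, 10.90, 10.91 and 10.88 in the Rnf146 libraries. The 2 groups were separated by more than the range within either one. The mean difference was 0.11 ± 0.02 (n = 4, SD), with a 95% interval from 0.01 to 0.21. Only 1.29% of all genes had a spread between pairs as small or smaller. limma shrinks such a small spread toward that of the other genes, and the adjusted p was 0.347 with the block. The fit without the block, which is not valid for mirrored values, gave 0.009. With correction for GC content and length the mean was 0.078.

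*Bmpr2* (chromosome 1, 59802544 to 59918173, plus strand), the type II receptor gene, was higher in 3 of the 4 pairs, with differences of 0.17, 0.04, 0.04 and -0.04. The average, 0.05 ± 0.09 (n = 4, SD), did not exceed the spread, and the interval ran from -0.06 to 0.16. The average was 0.013 without pair 1 and 0.0069 with correction for GC content and length. The mean of *Bmpr1a* lies inside that interval, and *Bmpr1a* minus *Bmpr2* was -0.05, 0.08, 0.08 and 0.12 in the 4 pairs, so that the 2 receptor genes had no fixed order.

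**Figure D2:**
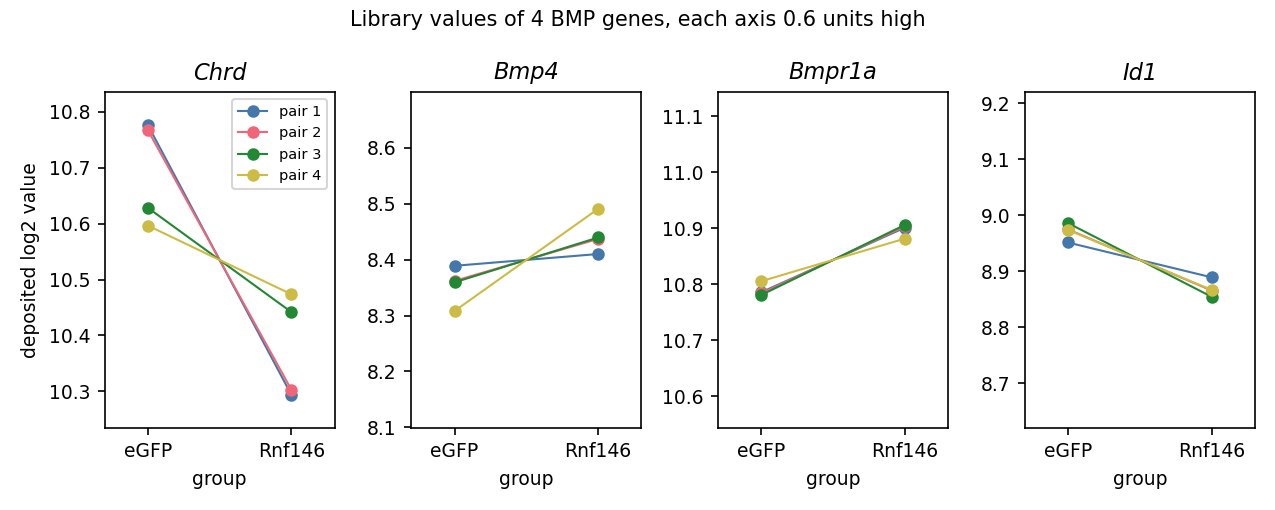
Deposited log2 values (vertical axis) of *Chrd*, *Bmp4*, *Bmpr1a* and *Id1* in the eGFP and Rnf146 libraries, with a line joining the 2 libraries of each pair and the same span of 0.6 units in every panel. The lines cross at one point because the values were centred within pairs, and in all 4 genes every line has the same direction.

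*Id1* (chromosome 2, 152566218 to 152579544, plus strand), whose upstream Smad motifs are shown above, had values of 8.95, 8.97, 8.99 and 8.97 in the eGFP libraries. In the Rnf146 libraries they were 8.89, 8.87, 8.85 and 8.87. All Rnf146 libraries were lower, by 0.06 to 0.13. The mean difference was -0.10 ± 0.03 (n = 4, SD) with a 95% interval that ended just short of 0, from -0.20 to -0.0039. The adjusted p was 0.384 with the block and 0.014 without it, and the mean stayed between -0.12 and -0.09 with each pair left out.

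*Id3* (chromosome 4, 135870808 to 135873066, plus strand) had no common direction. Its eGFP values were 9.73, 9.71, 9.58 and 9.61 and its Rnf146 values 9.50, 9.52, 9.65 and 9.62. It was lower in pairs 1 and 2, by 0.22 and 0.20, and stood at 0.07 and 0.00 in pairs 3 and 4. On average it differed by -0.09 ± 0.14 (n = 4, SD), less than the spread (adjusted p = 0.615, limma), and by -0.042 without pair 1. *Id2* (chromosome 12, 25143798 to 25147282, minus strand), an Id gene that cortical neurons also express, had differences of 0.05, -0.02, 0.20 and -0.00. Pair 3 stood apart from the other pairs, and the mean of 0.06 ± 0.10 (n = 4, SD) had an adjusted p of 0.706 and was 0.011 without pair 3.

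The other genes of the pathway were described as lists. Of 88 listed genes, 71 had values. Among these, 2 were called higher (*Id4* and *Dlx1*) and 1 was called lower (*Neurod2*), beside 0.818% and 0.432% of all genes in these directions. The median difference of the 71 genes was 0.02, beside 0.00 for all genes. *Id4* (chromosome 13, 48414558 to 48419502, plus strand) is an Id gene known from astrocytes and neural progenitors. Its values were 11.13, 11.07, 11.15 and 11.27 in the eGFP libraries and 11.52, 11.58, 11.49 and 11.38 in the Rnf146 libraries. All Rnf146 libraries were above all eGFP libraries. The mean difference was 0.34 ± 0.16 (n = 4, SD), with a 95% interval from 0.19 to 0.48 and an adjusted p of 0.074. The call was lost without pair 2, 3 or 4, with adjusted p-values of 0.300, 0.156 and 0.138, although the difference stayed between 0.28 and 0.41.

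The mean differences of *Id1*, *Id2*, *Id3* and *Id4* had both signs. In every pair the *Id4* difference was above the *Id1* difference, by 0.45, 0.61, 0.47 and 0.22. The astrocyte list had differences of 0.00, -0.04, 0.05 and -0.00, with 1 of its 8 genes (*Slc4a4*) called higher, beside 0.818% of all genes. The septum and basal forebrain list was higher in all 4 pairs, by 0.66, 0.85, 0.35 and 0.67, and ran from 9.37 to 9.62 in the eGFP libraries and from 9.97 to 10.22 in the Rnf146 libraries. *Chat* and *Lhx8* of that list were not analysed here. The part of this tissue signal in the *Id4* values was not tested. In bulk tissue, fewer cells of a type and less RNA per cell cannot be told apart.

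*Dlx1* (chromosome 2, 71358457 to 71364325, plus strand), a homeobox gene of forebrain GABAergic neurons, was listed as a BMP target. Its values were 10.15, 10.08, 10.19 and 10.20 in the eGFP libraries and 10.53, 10.59, 10.48 and 10.48 in the Rnf146 libraries. It was higher in every Rnf146 library, by 0.37 ± 0.11 (n = 4, SD, adjusted p = 0.029, limma), and the call was lost without pair 2 or pair 4 (adjusted p = 0.139 and 0.156). The mean of the inhibitory neuron list differed by 0.09, 0.19, 0.20 and 0.21, with *Gad1*, *Gad2* and *Slc32a1* called higher, beside 0.818% of all genes. The other 4 of its 7 genes had means below 0, and its median was -0.03, opposite in sign to its mean. Its part in the *Dlx1* values was not tested. Of the other 9 listed target genes with values, *Hes1*, *Msx1*, *Hey1*, *Hey2*, *Heyl* and *Bambi* among them, none was called.

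No gene was called among the other genes named Bmp or Gdf (5 with values, *Bmp1* among them, which encodes a metalloprotease and not a ligand), the other secreted antagonists and modulators (21), the other receptors and membrane modulators (8) or the Smads and their intracellular regulators (17). At an unadjusted p under 0.05, the counts in these lists were 2 (*Bmp1* and *Gdf11*), 4, 0 and 3, beside 12.4% of all genes. The receptors had the narrowest range, from -0.07 to 0.05, and included *Bmpr1b*, *Acvr1* and *Acvr2b*. The antagonists and modulators ran from -0.17 to 0.19, and 2 of the 21 had the same direction in all 4 pairs, beside 20.6% of all genes. The medians of the 4 lists lay between -0.02 and 0.03.

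The bHLH factors with which Id proteins interact, or whose partners they bind, had 11 listed genes, all with values. *Neurod2*, a neuronal bHLH factor of cortical projection neurons, was called lower, with differences of -0.38, -0.44, -0.17 and -0.23 and an adjusted p of 0.069. The call was lost without pair 2 or pair 4 (adjusted p = 0.287 and 0.245). The study also lists *Neurod2* as downregulated in these same libraries, so its direction here is not independent evidence. *Neurod6* and *Bhlhe22*, from the same neurons, differed by -0.22 (adjusted p = 0.265) and -0.28 (adjusted p = 0.219), and *Bhlhe22*, higher in pair 1 alone, was called without that pair (adjusted p = 0.034). *Olig2*, the bHLH factor of the oligodendrocyte lineage, was at the other end of the list, at 0.21 with an adjusted p of 0.379, and without pair 1 it was called too, at 0.34 with an adjusted p of 0.031. The E-protein genes *Tcf3*, *Tcf4* and *Tcf12* were not called. Of these, *Tcf4* alone kept 1 direction, with differences of -0.23, -0.11, -0.05 and -0.16 in the 4 pairs. Its average of -0.14 had a 95% interval from -0.25 to -0.03 and an adjusted p of 0.284. *Tcf3* and *Tcf12* differed by -0.02 and 0.08 with mixed signs between pairs. Within this list, 5 of the 11 genes had an unadjusted p under 0.05 in limma, beside 12.4% of all genes.

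**Figure D3:**
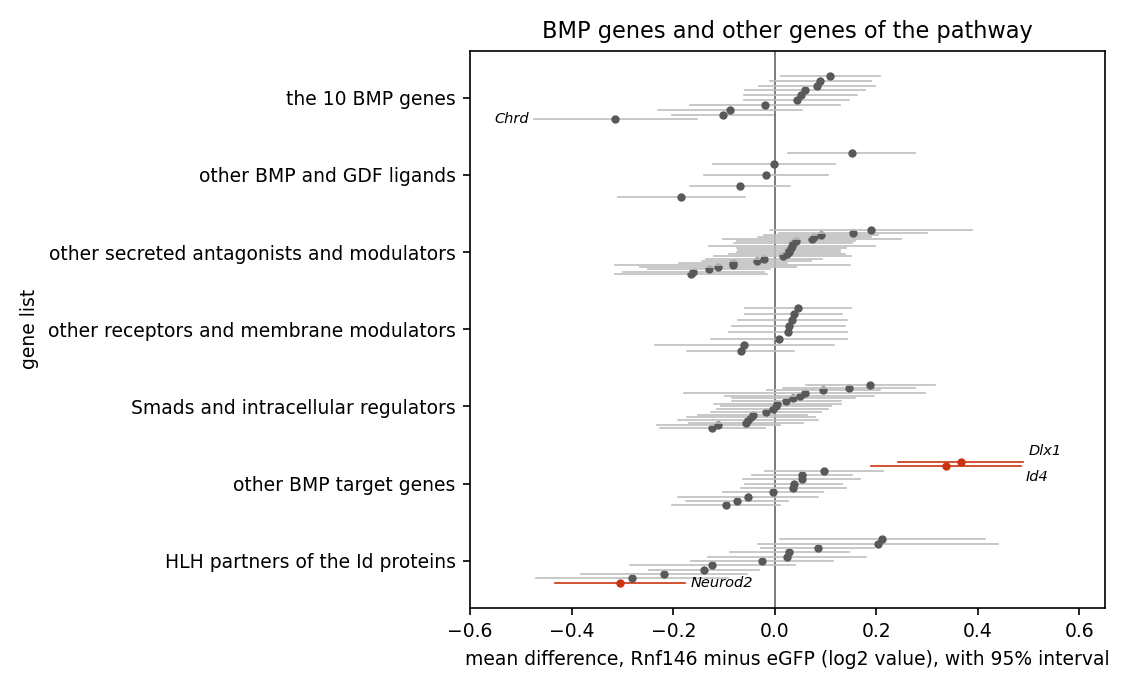
Mean difference between Rnf146 and eGFP libraries (horizontal axis, log2 value) with its 95% interval from limma with the replicate block, for the 10 BMP genes and the other listed genes of the pathway. Genes with an adjusted p of 0.1 or less are red and named (*Dlx1*, *Id4* and *Neurod2*), and *Chrd*, which was not called, is named at the lower end of the first row.

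The cell type markers were set beside *Chrd* and *Id3*, whose pairs 1 and 2 stood apart from pairs 3 and 4. The list of cortical excitatory neurons had differences of -0.36, -0.36, 0.03 and -0.18, with 1 of its 6 genes (*Slc17a7*) called lower, beside 0.432% of all genes. It ran from 13.11 to 13.31 in the eGFP libraries and from 12.95 to 13.14 in the Rnf146 libraries. All 6 of its genes had means below 0, 5 of them at an unadjusted p under 0.05 (limma), beside 12.4% of all genes. *Chrd* and the mean of this list were both lower in pairs 1, 2 and 4, and in pair 3 *Chrd* was lower while the mean of the list was not. Of the 6 genes, 3 were lower in all 4 pairs, beside 10.2% of all genes. The study places *Chrd*, *Slc17a7* and *Neurod2* among the downregulated genes of 1 coexpression module from these same libraries. Their shared direction here is therefore not independent evidence. The endothelial list, set beside *Id1* and *Id3* because both genes are abundant in vessels, had differences of -0.02, -0.06, 0.09 and -0.01, with 0 of its 8 genes called. It ran from 9.74 to 9.81 and from 9.75 to 9.83 in the 2 groups, and the mural cell list averaged 0.05 ± 0.05 (n = 4, SD). The list of meninges and perivascular fibroblasts, with 7 of 8 genes, had differences of -0.13, -0.14, 0.06 and -0.17. The microglia list averaged -0.17 ± 0.08 with 1 of its 8 genes called lower, beside 0.432% of all genes. All 8 of its genes had means below 0, and 6 were lower in all 4 pairs, beside 10.2% of all genes. No gene of the striatal or the oligodendrocyte list was called, with means of 0.59 ± 0.67 and 0.45 ± 0.45. All 8 genes of each of these lists had means above 0. At an unadjusted p under 0.05 in limma, the counts were 7 of 8 and 8 of 8, beside 12.4% of all genes. The 3 genes with values among 8 of ependyma and choroid plexus averaged 0.21 ± 0.06 with 2 called higher, beside 0.818% of all genes. The part of these lists in the values of *Chrd*, *Id1* and *Id3* was not tested.

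**Figure D4:**
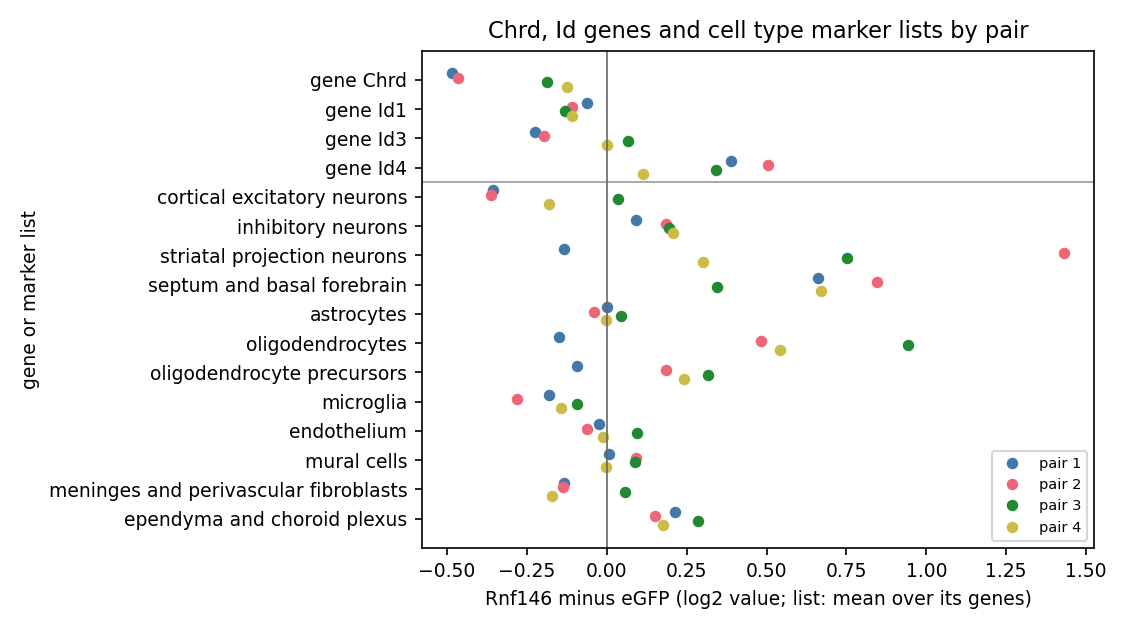
Differences between the Rnf146 and the eGFP library of each pair (horizontal axis, log2 value, averaged over the genes of a list) for *Chrd*, *Id1*, *Id3*, *Id4* and 12 lists of cell type markers, with 1 coloured point per pair. The striatal and oligodendrocyte lists spread widest, from -0.13 to 1.43 and from -0.15 to 0.94, while the astrocyte and endothelial lists lie near 0.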

How the data were processed

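The authors trimmed reads with Cutadapt, quantified transcripts with Salmon 1.9.0 against GENCODE vM30 (GRCm39) and deposited 1 table of log2 values for 15039 genes. DESeq2 is named in the submitters' processing notes. The normalization and the pair centring are not given in the sources used here. The 2 values of a pair had the same sum in all 4 pairs (largest spread 1.4e-13), which fixes the correlation of same-numbered libraries at -1 and is why the replicate number was a block, leaving 3 residual degrees of freedom. Whether same-numbered mice shared a litter or a batch is not stated. Flipping the signs of 4 differences in an exact test leaves a smallest two-sided p of 0.125, so genes were tested only with limma 3.58.1 in R 4.3.3 (lmFit, trended eBayes) and p-values were adjusted by Benjamini-Hochberg over all genes. The fit was also run on simulated pair differences drawn independently for each gene. No outcome is given here, so this lends the fit no support. Gene coordinates, GC content and length (14590 genes) came from GENCODE vM39 on GRCm39, and upstream sequences from the GRCm39 genome. No sample column was left unused. Python 3.11.15 with pandas 2.3.3 made the tables.

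The 10 members and all lists were chosen with earlier results of these data known. The text names the 10 members, *Rnf146*, the called genes and the 3 highest and 3 lowest of the other pathway genes (among these *Olig2*, *Neurod6* and *Bhlhe22*), and genes that overlap a member on the opposite strand. Other genes are named only as examples of a list. Alternatives were no block, median centring, quantile normalization, removal of the 25% of genes with the lowest means, untrended and robust variances, GC and length correction, an adjusted p of 0.05, and each pair left out.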

Additional observations from a re-analysis of the deposited data

Results flagged for a closer look

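*Olig2* differed by -0.17 in pair 1, while the other 3 pairs lay between 0.32 and 0.36, and the gap of pair 1 to the nearest pair was large against the whole range (Dixon's criterion for 4 values). The gene was 1 of 22 examined, and chance alone marks about 1 in 20. The precursor list, which holds *Olig2*, and the oligodendrocyte list also had pair 1 on the other side of 0, at -0.09 and -0.15. No member of the 10 BMP genes met the criterion.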

How the results depend on the processing

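Without the replicate block, which treats the 8 centred values as independent, the called genes were 4 of the 10 members (*Chrd*, *Bmp4*, *Bmpr1a* and *Id1*), 25 of the 71 other pathway genes and 3226 of all genes (21.5%), in place of 0, 3 and 188. Under every alternative with the block, 0 of the members with values were called, also at an adjusted p of 0.05, with 1 to 3 of them at an unadjusted p under 0.05 in limma. Removal of the 25% of genes with the lowest means left 6 of the 10 members and took out *Nog*, *Bmp4*, *Bmp6* and *Id1*. With 1 pair left out, the other pathway genes called numbered between 0 and 7 and all genes between 14 (without pair 4) and 421 (without pair 1), and 42 without pair 2. Without pair 2 or pair 4, when 0 of the 71 were called, 9 and 10 had an unadjusted p under 0.05. Of the members' mean differences under these alternatives, only that of *Bmp6* changed sign, to 0.013 with GC and length correction, and it ran from -0.068 (without pair 2) to 0.0598 (without pair 1) with 1 pair left out. Other uncalled means kept their sign but moved in size, *Nog* (0.016 without pair 4, 0.069 with GC and length correction), *Bmp4* (0.059 without pair 4), *Bmp7* (0.055 without pair 3), *Bmpr2* (0.013 without pair 1, 0.082 without pair 4, 0.0069 with GC and length correction), *Id2* (0.011 without pair 3) and *Id3* (-0.042, -0.052 and -0.139 without pairs 1, 2 and 3). The number of members with 1 direction in all 4 pairs was 4 under median centring and quantile normalization too. The block changed the calls of no other member. Precision is limited by 4 pairs and by a depth that is unknown.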

Other observations

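Outside the rule for named genes, 3 more genes were picked after their values were seen. *Smurf1* and *Smurf2* encode related ubiquitin ligases that mark Smads and BMP receptors for degradation. *Smurf1* was lower in all 4 pairs, by 0.20, 0.09, 0.14 and 0.06, on average -0.12 ± 0.06 (n = 4, SD, adjusted p = 0.321, limma). *Smurf2* was higher in all 4 pairs, with differences of 0.30, 0.27, 0.06 and 0.12, on average 0.19 ± 0.12 (n = 4, SD, adjusted p = 0.221, limma). *Bmp1*, which encodes a metalloprotease that cleaves Chordin rather than a BMP ligand, had differences of -0.04, -0.31, -0.25 and -0.14. The average was -0.18 ± 0.12 (n = 4, SD, adjusted p = 0.223, limma). None of the 3 was called with all 4 pairs and the block, all 3 were called without the block, and *Bmp1* was also called without pair 1 (adjusted p = 0.098).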
